A study of Mus musculus with 28 samples.

Results

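The genes described here are Trp63, Trim29 and 8 keratin genes, Krt5, Krt7, Krt8, Krt14, Krt15, Krt17, Krt18 and Krt19. They were taken by name from the gene annotation of the array probes, which gave 11 probes, 2 for Trim29 and 1 for each of the other genes. They are 10 of the 16593 gene symbols on the array, and all 10 passed the filter that left 9651 genes for testing. The series measured total RNA from mouse embryos, with 1 Illumina bead array (MouseRef-8 v2) for each sample. In embryos at E11.5 (days of gestation), it profiled endoderm sorted from 6 organ domains: lung, esophagus, stomach, liver and intestine with 3 arrays each, and pancreas with 4. At E8.25, in embryos of 4 to 6 somites, it profiled definitive endoderm, ectoderm and mesoderm, with 3 arrays each. Per the series design text, an organ sample was dissected from 10 to 12 pooled embryos and sorted by flow cytometry for endoderm. The sources used here give neither the sort marker nor the strain, nor how the E8.25 layers were isolated.

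Keratins are the intermediate filament proteins of epithelia, and each filament is built from pairs of a type I and a type II keratin. Krt8 and Krt7 (type II) with Krt18 and Krt19 (type I) form the filaments of simple, single-layered epithelia, whereas Krt5 (type II) with Krt14 and Krt15 (type I) marks the basal layer of stratified epithelia, and Krt17 (type I) is a keratin of embryonic and activated stratified epithelium. Trp63 encodes p63, a transcription factor of the p53 family on which the basal cells of stratified epithelia depend, and in the foregut it is known as a marker of the future esophageal lining. Trim29 encodes a tripartite motif protein found in basal epithelial cells.

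Promoter windows were at hand in RefSeq (build GRCm38.p6) for 5 of the 10 genes, each covering 250 bases before and 50 bases after an annotated transcript start. They are shown for a stratified keratin and for 3 simple keratins, whose levels go different ways across the groups below. All 4 genes lie in the type II keratin cluster, in which the type I gene Krt18 is the neighbour of Krt8. Capitals mark matches, on either strand, to 4 motifs: the TATA box (TATAAA), the GC box (GGGCGG), the AP-2 site (GCCNNNGGC) and the p53 family half-site.
Krt5 promoter, chr15:101712856-101713155, minus strand: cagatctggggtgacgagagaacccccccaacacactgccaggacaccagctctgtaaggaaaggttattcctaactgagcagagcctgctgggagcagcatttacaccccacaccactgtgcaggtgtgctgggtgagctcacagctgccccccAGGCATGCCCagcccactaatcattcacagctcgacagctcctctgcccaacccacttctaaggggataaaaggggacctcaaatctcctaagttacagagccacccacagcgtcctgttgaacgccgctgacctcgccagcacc
Krt7 promoter, chr15:101412153-101412452, plus strand: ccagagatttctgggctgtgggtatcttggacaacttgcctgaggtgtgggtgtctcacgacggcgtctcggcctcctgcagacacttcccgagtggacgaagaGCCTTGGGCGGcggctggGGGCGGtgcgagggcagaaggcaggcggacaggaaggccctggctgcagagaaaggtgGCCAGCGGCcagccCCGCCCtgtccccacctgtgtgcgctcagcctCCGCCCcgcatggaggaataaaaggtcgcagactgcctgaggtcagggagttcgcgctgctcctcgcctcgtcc
Krt8 promoter, chr15:102004293-102004592, minus strand: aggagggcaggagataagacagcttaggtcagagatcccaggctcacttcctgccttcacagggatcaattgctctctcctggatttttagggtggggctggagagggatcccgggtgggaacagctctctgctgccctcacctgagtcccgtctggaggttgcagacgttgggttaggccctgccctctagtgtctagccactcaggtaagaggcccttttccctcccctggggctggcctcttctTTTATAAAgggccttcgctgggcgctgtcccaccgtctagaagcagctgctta
Krt18 promoter, chr15:102027966-102028265, plus strand: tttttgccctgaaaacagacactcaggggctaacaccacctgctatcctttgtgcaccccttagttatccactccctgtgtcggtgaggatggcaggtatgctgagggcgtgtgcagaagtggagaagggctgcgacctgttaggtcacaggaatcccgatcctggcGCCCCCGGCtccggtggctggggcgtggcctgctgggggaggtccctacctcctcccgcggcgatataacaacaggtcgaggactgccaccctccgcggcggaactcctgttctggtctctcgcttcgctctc
The Krt5 window held 1 p53 family half-site, which starts at position -95 relative to the transcript start, and no match to the other 3 motifs. The Krt7 window held 4 GC boxes and 2 AP-2 sites, the AP-2 site at -146 overlapping the GC box at -141. In the Krt8 window, TATA boxes on both strands overlapped one another at the annotated start. The Krt18 window held 1 AP-2 site, at -83. Of 32851 mouse promoter windows of the same length, 8.36% held a half-site, 16.6% an AP-2 site, 35.7% a GC box and 13.6% a TATA box. A match is a stretch of letters and not a measured binding site, and a missing match says only that these letters are not in this window. The fifth window, for Krt14, belongs to a transcript that starts inside the annotated gene and is not shown.

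Levels below are background-corrected, quantile-normalized log2 intensities, and values of 1 group are listed in replicate order. On each array, a probe was taken as detected when it exceeded the 99th percentile reached by 1362 sensory receptor probes, a threshold between 6.26 and 7.48. Between 10843 and 12862 of the 25697 probes were detected on 26 arrays, and fewer on pancreas replicate 3 (7083) and intestine replicate 3 (9664). The identity markers of each organ were detected there: all 5 of the esophagus, lung, stomach and pancreas lists on each array of that organ, 5 to 6 of 6 of the liver list and 3 of 5 of the intestine list. Definitive endoderm had 6 of 6 of its markers on each array, mesoderm 6 of 6, and ectoderm 4 of 7 neural markers. These lists were not confined to their own group: endoderm had 3 to 4 of the 7 neural markers, with a summed level of 10.66 to 11.21 against 11.10 or more in ectoderm, and ectoderm had 5 of 6 endoderm markers, at 10.56 to 11.12 against 13.69 to 14.00 in endoderm, and 5 to 6 of 6 mesoderm markers, at 10.23 to 10.83 against 12.16 to 12.28 in mesoderm. The stomach list summed to 13.19 to 13.29 in esophagus, against 12.43 to 12.64 in stomach. The liver list summed to 14.73 to 14.85 in pancreas, 14.11 to 14.48 in intestine and 12.65 to 12.81 in stomach, against 15.79 to 16.04 in liver. Of the intestine list, 3 of 5 were also detected on each E8.25 endoderm array. In the liver samples the epithelial markers were low: 3 to 4 of 7 were detected, with a summed level of 9.56 to 10.24 on the log2 scale, against 13.31 to 14.16 in the other organs, and Grhl2, an epithelial transcription factor gene, was detected on none of the 3 liver arrays. On 8 arrays, all of liver and mesoderm with lung replicate 1 and stomach replicate 1, no deposited intensity was over 20000, so this intensity class and the group can be separated only through the lung and stomach arrays. A p-value rests on the spread between samples of a group, estimated over all 9 groups, and the organ samples were pools of embryos.

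**Figure D1:**
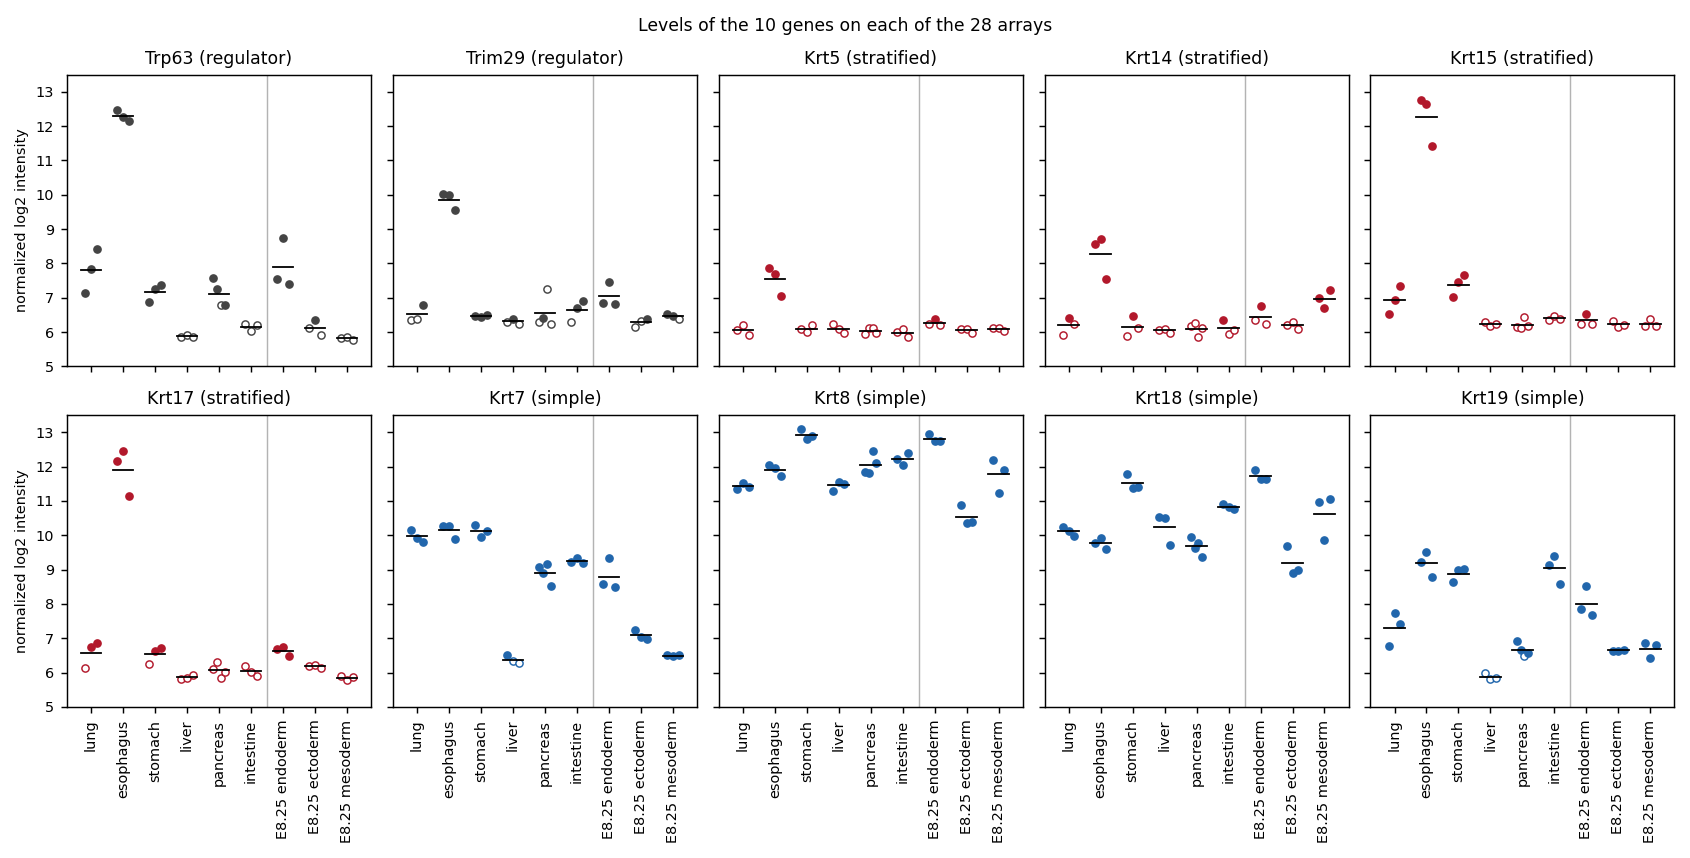
Normalized log2 intensity (vertical axis) of each gene in its own panel, by group, with 1 point per array; filled points were detected, open points were not, and the bar is the group mean. Trp63, Trim29, Krt5, Krt14, Krt15 and Krt17 are highest on the 3 esophagus arrays, while Krt8 and Krt18 are detected on all 28 arrays.

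In the E11.5 esophagus, Trp63, Trim29 and all 4 stratified keratins stood above every other group. Trp63 had levels of 12.47, 12.25 and 12.14 on the esophagus arrays, against 7.14, 7.83 and 8.43 in lung, 6.88, 7.26 and 7.38 in stomach, and 7.58, 7.25, 6.79 and 6.78 in pancreas. It was not detected on any array of liver, at 5.86 to 5.93, or of intestine, at 6.03 to 6.24. The lowest esophagus array lay far above the highest array of any other organ, lung replicate 3. Against the mean of the other 5 organs, Trp63 was at least 39.3-fold higher in esophagus (adjusted p = 4.2e-15, limma, n = 3 against 16 arrays). The bound arises because a group without detection on any array enters at the detection threshold. A p-value given with a bound belongs to the fitted difference, here 5.46 ± 0.22 on the log2 scale. In bulk samples, fewer cells of a type and less RNA per cell cannot be told apart.

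For Trim29, both probes set the esophagus apart. The brighter probe read 10.02, 9.98 and 9.56 in esophagus and 6.24 to 7.25 on the 16 arrays of the other organs, and the groups did not overlap. The difference was 3.36 ± 0.17 (log2, standard error), a 10.2-fold higher level in esophagus (adjusted p = 8.9e-14). The second Trim29 probe read 8.61, 8.76 and 8.88 in esophagus, and outside it the probe was above threshold only on lung replicate 3 and on E8.25 endoderm replicates 2 and 3, at 6.40 to 6.62.

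Among the stratified keratins, the type I genes Krt15 and Krt17 had the largest differences between esophagus and the other organs. Krt15 had levels of 12.75, 12.64 and 11.42 in esophagus, against 7.02, 7.45 and 7.65 in stomach and 6.54, 6.93 and 7.33 in lung, and it was not detected on any array of liver, pancreas or intestine. Krt17 had levels of 12.15, 12.44 and 11.13 in esophagus, with 6.24, 6.64 and 6.71 in stomach and 6.12, 6.73 and 6.87 in lung. For both genes the third esophagus array was the lowest of its group and still far above all arrays of other groups. Krt15 was at least 45.5-fold and Krt17 at least 41.9-fold higher in esophagus than in the mean of the other organs.

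Krt5, the type II partner of the basal layer, had levels of 7.86, 7.69 and 7.06 in esophagus and 5.86 to 6.23 on the other 16 organ arrays, where it was never detected. It passed the filter through the esophagus alone, so the filter favoured a higher level there. It was at least 2.12-fold higher (fitted difference 1.48 ± 0.11, adjusted p = 7.4e-11, limma). Krt14, the type I partner, had levels of 8.58, 8.72 and 7.54 in esophagus and 5.85 to 6.48 on the other organ arrays. Its fitted difference was 2.16 ± 0.18 (adjusted p = 6.3e-10, limma). With liver and pancreas, where it was not detected, at the threshold, it was 3.98-fold higher. Lung, stomach and intestine, each with 1 array detected, entered at their own level, so this is not a strict lower limit. The third esophagus array was again the lowest of the 3. The same array was the lowest of the esophagus group for Col17a1, which encodes the hemidesmosomal collagen XVII (10.19, 10.21 and 8.96), and for the smooth muscle actin gene Acta2 (11.84, 11.60 and 10.02), and was the highest for the stratification and pluripotency factor gene Sox2 (9.08, 9.14 and 9.96).

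In all, 8 of the 10 genes were called higher in esophagus than in the mean of the other 5 organs and 0 lower, where 4.00% of all tested genes were called higher and 2.47% lower. Without Krt5, which passed the filter through the esophagus alone, 7 of 9 genes were called higher. A call required an adjusted p under 0.05 and a log2 difference of at least 1 in size. The other 2 called genes were the simple keratins Krt19, at least 2.89-fold higher, and Krt7, with 1.22 ± 0.14 on the log2 scale. Krt8 (-0.11 ± 0.15, adjusted p = 0.61) and Krt18 (-0.71 ± 0.20) were not called. The median log2 difference was 3.90 over the 4 stratified keratins (3.69 with undetected groups at the threshold) and 0.55 over the 4 simple ones, against -0.02 over all genes tested. Within the 20 brighter arrays, which hold no liver array, the Krt7 difference was 0.62 and not called.

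**Figure D2:**
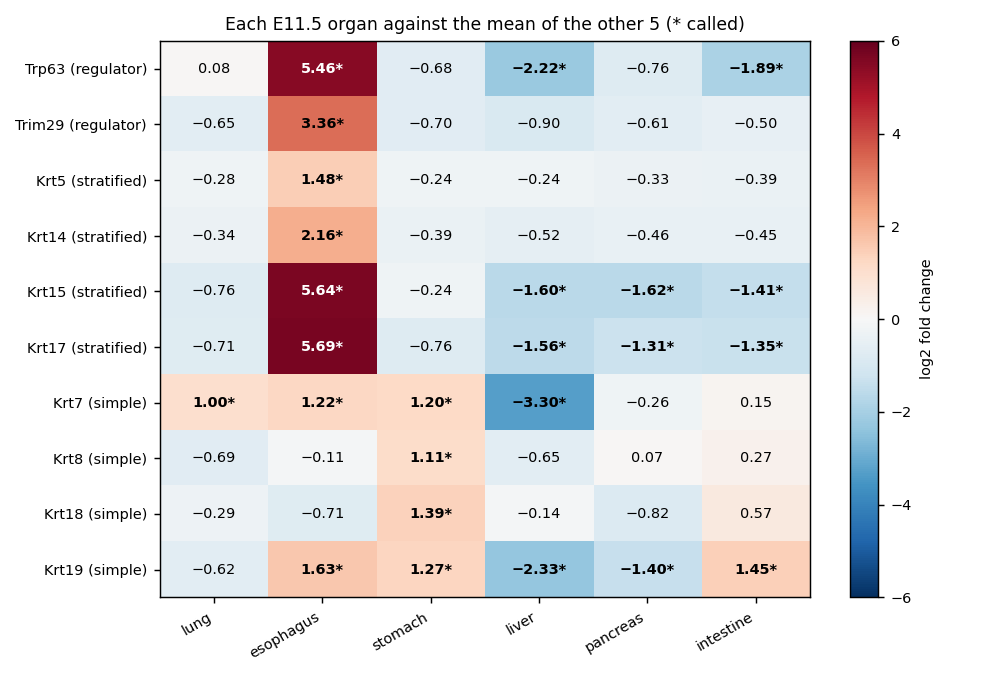
Log2 fold change of each gene (rows) in each E11.5 organ (columns) against the mean of the other 5 organs, as fitted, with an asterisk on each call; where a group had no array above threshold, the fitted value is not a bound. The esophagus column holds the 5 largest positive values, from Krt14 at 2.16 up to Krt17 at 5.69, and the stomach column holds 4 called simple keratins.

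The esophagus differed from its neighbours along the foregut in both keratin classes. Against stomach, 6 genes were called higher in esophagus (3.34% of all tested genes) and 2 lower (2.39%), and 5 higher without Krt5. The 6 were Trp63 at 5.12 ± 0.29, Krt17 at 5.38 ± 0.22, Krt15 at 4.90 ± 0.24, Trim29 at 3.38 ± 0.22, Krt14 at 2.12 ± 0.23 and Krt5, at least 2.23-fold higher. The 2 lower genes formed the simple keratin pair, Krt18 with -1.75 ± 0.26 and Krt8 with -1.02 ± 0.19, and Krt7 (0.01 ± 0.18) and Krt19 (0.30 ± 0.24) were not called. The Krt8 value is at the edge of the fold limit and was -0.92 without esophagus replicate 3, -0.94 without stomach replicate 1, and -0.95 within the brighter arrays.

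Lung against esophagus gave the same 6 genes in the other direction, with the same esophagus arrays in both comparisons. All 6 were called lower in lung, and so was Krt19, 7 genes in all, or 6 without Krt5, and 0 called higher, where 3.82% of all tested genes were called lower and 2.26% higher. Krt19 had levels of 6.78, 7.72 and 7.41 in lung, against 9.23, 9.52 and 8.78 in esophagus, and the groups did not overlap (-1.87 ± 0.24). Trp63 was 22.4-fold and Krt15 and Krt17 each 40.4-fold lower in lung than in esophagus. Krt7 (-0.18 ± 0.18), Krt8 (-0.49 ± 0.19) and Krt18 (0.35 ± 0.26) were not called between lung and esophagus.

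Other genes of the basal program were higher in esophagus along with Trp63. Of 35 listed genes for basal epithelium and p63 targets, 32 were on the array and 27 were tested, and 19 were called higher in esophagus than in the other organs and 0 lower, with a median of 1.58 (1.48 with undetected groups at the threshold) against -0.02 for all genes. They included Col17a1, at least 10.1-fold higher, the hemidesmosome integrin gene Itgb4 at 3.06 ± 0.21, the AP-2 gene Tfap2c, at least 6.86-fold higher, the 14-3-3 sigma gene Sfn, at least 4.84-fold higher, Sox2, at least 4.84-fold higher, and the basement membrane laminin gene Lamb3, at least 4.06-fold higher. Against stomach alone 16 of the 27 were called higher in esophagus and 0 lower, and 15 were called lower in lung than in esophagus and 0 higher. Of 11 tested keratin partner genes, 5 were called higher and 0 lower: the small heat shock protein gene Hspb1 at 3.31 ± 0.14, Eppk1 (epiplakin), at least 4.71-fold higher, Pof1b, at least 4.15-fold higher, Ppl (periplakin) at 1.37 ± 0.12, and Sfn. Of the 27 basal genes, 4 passed the filter through the esophagus alone, so the filter favoured a higher level there. Without them, 16 of 23 were called higher in esophagus than in the other organs. Of the same 23, 13 were called higher in esophagus than in stomach, and 12 were called lower in lung than in esophagus. Of the partners, 1 passed in this way, and 4 of the other 10 were called higher. The lists were chosen with results of these data known.

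Genes of the upper stratified layers were mostly at background. Of 23 genes of the suprabasal layers and the cornified envelope, among them Krt1, Krt4 and Krt13, 20 were on the array and 6 were detected well enough to be tested. Of the 6, 1 was called higher in esophagus and 0 lower: Anxa1, an annexin gene, at least 8-fold higher, with levels of 9.66, 9.98 and 9.33 in esophagus. Among 6 tested desmosome genes, 1 was called higher, Ppl, and 0 lower. Trp73, another p53 family gene, was on the array and not tested.

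Some markers of other tissues were also higher in esophagus, while 3 of 5 erythroid markers (median -1.60) and 1 of 5 endothelial markers were called lower and 0 higher. Of 15 mesenchyme markers, of which 3 were called higher in esophagus and 1 lower, 11 to 13 were detected on each esophagus array, with a summed level of 13.14 to 13.37, against 10.72 to 11.69 in the other organs. The proteoglycan gene Dcn (4.28 ± 0.22), Acta2 (3.28 ± 0.33) and Twist1 (1.13 ± 0.10) were higher in esophagus, whereas Vim, the mesenchymal intermediate filament gene, was lower (7.59 on average in esophagus, against 8.59 in the other organs), and Col1a2 and Thy1 were detected on no esophagus array. Of 4 surface ectoderm markers tested, 4 were higher in esophagus: Tfap2c, Grhl3, Dlx3 and Tfap2a. The fifth, Dlx5, was not detected, and all 5 are also in the basal list. The summed level of these 5 was 10.22 to 10.61 in esophagus against 8.35 to 8.69 in the other organs. Of 4 mesothelium markers, Upk1b was at least 12.0-fold higher in esophagus. It passed the filter through the esophagus alone, so the filter favoured a higher level there. Of the other 3, 0 were called higher: Wt1 was near threshold (6.63, 6.52 and 6.40), and Upk3b and Msln were not detected in esophagus. The summed level of the 4 was 9.78 to 11.13 in esophagus against 7.92 to 9.12 in the other organs. The part of any of these tissues in the keratin levels was not tested.

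The simple keratins had their own order across the organs, with the stomach at the top for Krt8 and Krt18. Krt8 had levels of 13.08, 12.80 and 12.88 in stomach, above all 16 arrays of the other organs, which ran from 11.30 to 12.44. Krt18 had levels of 11.77, 11.36 and 11.41 in stomach, also above all other organ arrays, from 9.36 to 10.92. Krt8 and Krt18, the obligate pair of simple epithelia, were thus 1.11 ± 0.15 and 1.39 ± 0.20 higher on the log2 scale in stomach than in the mean of the other organs. Krt7 (1.20 ± 0.14) and Krt19, at least 2.25-fold higher, were called too, so that all 4 simple keratins and none of the other 6 genes were called higher in stomach, where 1.51% of all tested genes were called higher and 1.19% lower. Without liver, within the brighter arrays, the values were 0.95 for Krt8, 0.89 for Krt19 and 0.51 for Krt7, which are under the fold limit.

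In lung, 1 gene was called, Krt7, at 10.16, 9.93 and 9.81 in lung against 6.28 to 10.29 on the other organ arrays. The lung values overlapped with those of esophagus and stomach and lay above all arrays of intestine, pancreas and liver. The difference of 1.00 ± 0.14 sat on the fold limit and was 0.28 without liver in the brighter arrays, and it was between 0.91 and 1.00 and not called in 6 fits that each left out 1 array (esophagus 3, lung 1, stomach 2, liver 3, pancreas 4 or intestine 1). Of all tested genes, 1.75% were called higher in lung and 2.02% lower. Trp63 in lung differed by 0.08 ± 0.22 from the mean of the other organs, a mean that holds the esophagus.

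In liver, 5 of the 10 genes were called lower and 0 higher, where 6.81% of all tested genes were called lower and 6.65% higher. Krt7 had levels of 6.50, 6.35 and 6.28 in liver, with detection on 1 array, against 8.53 to 10.29 on the other organ arrays, and the difference was -3.30 ± 0.14 (adjusted p = 8.1e-16). Krt19 was detected on no liver array, at 6.00, 5.80 and 5.85, and was at least 3.6-fold lower than in the mean of the other organs. Trp63 was at least 3.35-fold, Krt15 at least 2.78-fold and Krt17 at least 2.09-fold lower, against a mean that holds the esophagus. In contrast to Krt7 and Krt19, the levels of Krt8 (11.30, 11.56 and 11.49) and Krt18 (10.52, 10.51 and 9.70) overlapped with those of other organs, with differences of -0.65 ± 0.15 and -0.14 ± 0.20 that were not called. The low epithelial markers of the liver samples, given above, moved with these values, and their part was not tested. All 5 liver calls kept their side of the threshold with the intensity class as a block.

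In pancreas, 3 genes were called lower and 0 higher, with 1.94% of all tested genes called lower and 2.85% higher. Krt19 had levels of 6.93, 6.65, 6.49 and 6.56 in pancreas, below every array of esophagus, stomach and intestine and above every array of liver, and only lung replicate 1 (6.78) fell inside its range. Its difference was -1.40 ± 0.16. Krt15 and Krt17, not detected on any pancreas array, were lower by at least 2.35-fold and 1.71-fold, against a mean that holds the esophagus. Trp63 was detected on 3 of the 4 pancreas arrays and was not called (-0.76 ± 0.20). In intestine, Krt19 was called higher, at 9.13, 9.38 and 8.59 and at least 2.56-fold above the mean of the other organs, while Trp63, Krt15 and Krt17 were called lower, at least 2.88-fold, 2.43-fold and 1.82-fold, against a mean that holds the esophagus. Within the brighter arrays, without liver, the Krt19 difference was 0.93 and not called. The Krt17 bounds in pancreas and intestine are under the fold limit, and their calls rest on the fitted differences (-1.31 ± 0.15 and -1.35 ± 0.17). Of all tested genes, 2.73% were called higher in intestine and 1.08% lower. Erythroid markers were high in intestine, with a summed level of 12.75 to 13.94, and in liver, with 11.11 to 13.48, against 9.37 to 11.05 in the other organs, and their part was not tested.

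**Figure D3:**
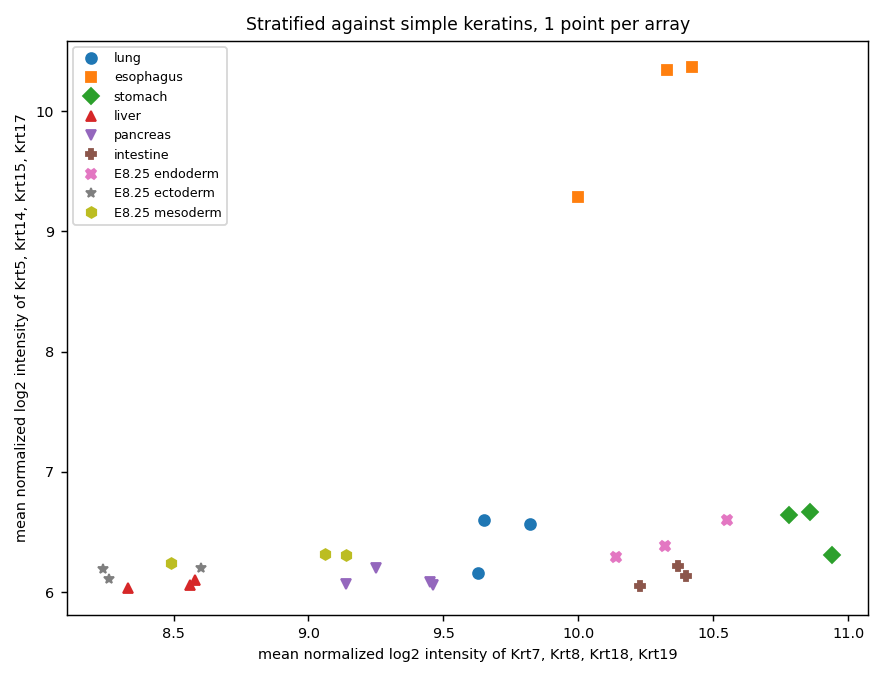
Mean normalized log2 intensity of the 4 stratified keratins (vertical axis) against that of the 4 simple keratins (horizontal axis), 1 point per array. The 3 esophagus arrays lie at 9.29 to 10.37 on the vertical axis and all other arrays at 6.03 to 6.67, whereas on the horizontal axis the arrays spread from 8.24 in ectoderm to 10.94 in stomach.

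Averaged per class, the stratified keratins read 10.34, 10.37 and 9.29 in esophagus, and the highest of the other 25 arrays read 6.67, in stomach. The simple keratins read 10.33, 10.42 and 10.00 in esophagus, inside the range of the other organs, which ran from 8.33 in liver to 10.94 in stomach. The esophagus thus stood apart in the stratified average and within the other organs in the simple average. Whether the same cells carry both classes cannot be read from bulk RNA.

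Set against E8.25 definitive endoderm, the esophagus had 8 genes called higher and 1 lower (6.07% and 5.08% of all tested genes). The 8 include Krt5, which passed the filter through the esophagus alone, so that the filter favoured a higher level there. All comparisons with endoderm share its 3 arrays and are not independent of each other. Trp63 in E8.25 endoderm read 7.54, 8.75 and 7.40 and was detected on each array, and esophagus stood 4.39 ± 0.29 above it. Krt15 was 5.93 ± 0.24 and Krt17 5.27 ± 0.22 higher in esophagus, followed by Trim29 at 2.80 ± 0.22, Krt14 at 1.84 ± 0.23, Krt7 at 1.35 ± 0.18, Krt5 at 1.26 ± 0.14 and Krt19 at 1.17 ± 0.24. Krt18 was lower, with 9.76, 9.93 and 9.61 in esophagus against 11.90, 11.63 and 11.65 in endoderm (-1.96 ± 0.26), and Krt8 had a difference of -0.91 ± 0.19. Without esophagus replicate 2, the Krt19 difference was 1.00 and not called. Of the 27 tested genes of the basal list, 12 were called higher in esophagus than in endoderm and 1 lower, while in liver 13 were called lower and 0 higher. The 27 include the 4 genes that passed the filter through the esophagus alone.

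The other organs went different ways from E8.25 endoderm. In lung, Krt7 was called higher (1.17 ± 0.18) and Krt8 and Krt18 lower (-1.40 ± 0.19 and -1.61 ± 0.26), with 4.00% of all tested genes called higher and 4.22% lower. In stomach, Krt7 (1.34 ± 0.18) and Krt15 (1.04 ± 0.24) were called higher and 0 lower (4.88% and 4.34%). Krt15 in stomach lay above all 3 endoderm arrays, at 6.25, 6.52 and 6.25, but its call was lost in 4 fits that each left out 1 array (stomach 2 or 3, endoderm 1 or 3), at 0.90 to 1.00. Trp63 in lung (-0.09 ± 0.29) and in stomach (-0.72 ± 0.29) was not called against endoderm.

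Liver had 5 genes called lower than in endoderm and 0 higher (9.40% and 9.16% of all tested genes). These were Trp63, at least 2.89-fold lower, and all 4 simple keratins, Krt7 at -2.42 ± 0.18, Krt18 at -1.48 ± 0.26, Krt8 at -1.36 ± 0.19 and Krt19, at least 3.13-fold lower. In pancreas, Krt18 (-2.05 ± 0.24) and Krt19 (-1.35 ± 0.22) were called lower and 0 genes higher (5.08% and 5.46%). In intestine, Trp63 was called lower, at least 2.59-fold, and Krt19 higher at 1.02 ± 0.24 (3.64% of all tested genes lower and 4.88% higher). The Krt19 value was 0.85 to 0.98 and not called in 4 fits that each left out 1 array (intestine 1 or 2, endoderm 1 or 3). Of the 4 tested surface ectoderm markers, 3 to 4 were called lower than in endoderm in each of the 5 organs other than esophagus, and 1 in esophagus, and their part in the Trp63 differences was not tested. In liver, 5 of 7 epithelial markers were also called lower than in endoderm and 0 higher (median -1.68), and 4 of 5 erythroid markers were called higher (median 3.74), as were 4 of 5 in intestine (4.20). The part of these markers in the keratin differences was not tested.

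**Figure D4:**
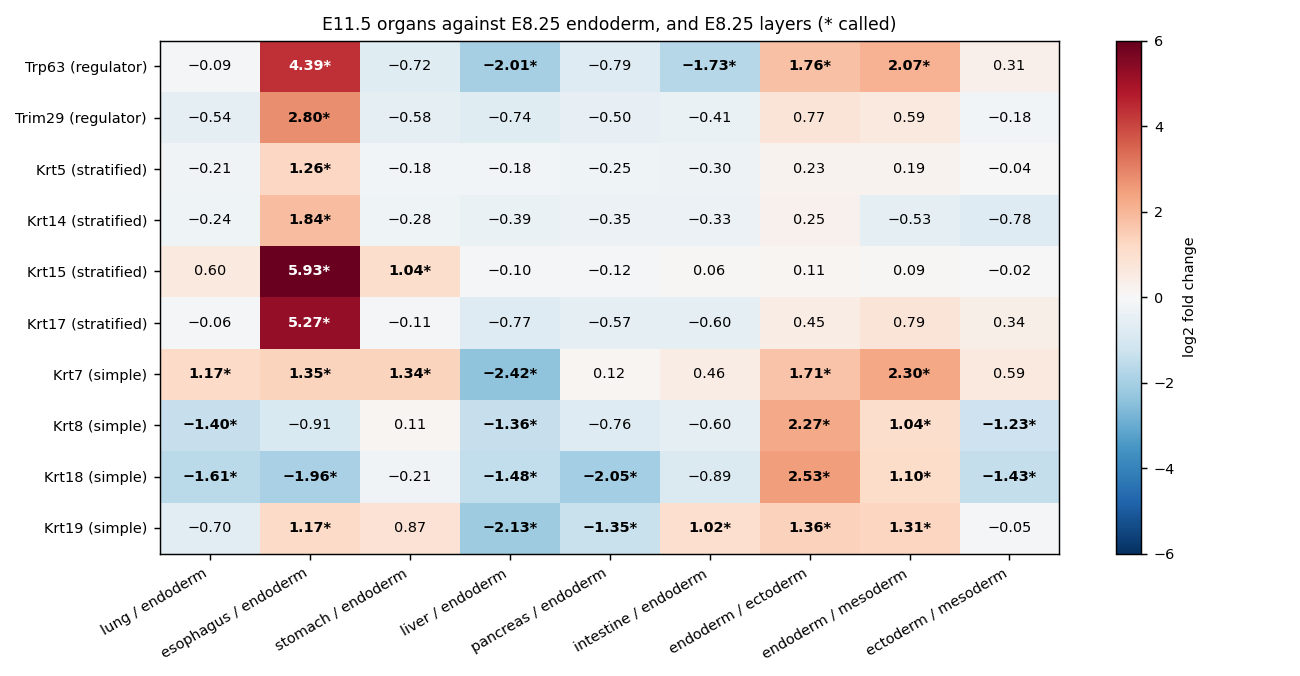
Log2 fold change of each gene (rows) in 6 comparisons of an E11.5 organ with E8.25 endoderm and in 3 comparisons between the E8.25 layers (columns, first-named over second-named), as fitted, with an asterisk on each call; where a group had no array above threshold, the fitted value is not a bound. Trp63 has 4.39 in esophagus, the highest value of its row, and values below 0 in the other 5 organs.

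At E8.25, Trp63 and all 4 simple keratins were higher in definitive endoderm than in either of the other layers. Trp63 read 7.54, 8.75 and 7.40 in endoderm, against 6.11, 6.36 and 5.93 in ectoderm and 5.83, 5.85 and 5.78 in mesoderm, and the endoderm arrays lay above all others. Endoderm exceeded ectoderm by 1.76 ± 0.29 (adjusted p = 0.00013) and was at least 2.79-fold above mesoderm, where no array detected Trp63. Endoderm replicate 2 was the highest of its group for Trp63, Trim29 (6.85, 7.47 and 6.82), Krt14 (6.34, 6.76 and 6.23), Krt7 (8.57, 9.33 and 8.48) and Krt19 (7.84, 8.51 and 7.68). The pharyngeal endoderm and thyroid factor gene Foxe1 read 6.07, 7.12 and 6.25 on the same arrays.

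Of the simple keratins, Krt18 and Krt8 had the largest differences between endoderm and ectoderm. Krt8 read 12.96, 12.74 and 12.74 in endoderm, against 10.89, 10.35 and 10.38 in ectoderm, and was 2.27 ± 0.19 higher in endoderm. Krt18 read 11.90, 11.63 and 11.65 in endoderm, against 8.91 to 9.68 in ectoderm, a difference of 2.53 ± 0.26. Neither gene overlapped between these layers, and Krt7 (1.71 ± 0.18) and Krt19 (1.36 ± 0.24) were higher as well. With Trp63, 5 of the 10 genes were called higher in endoderm than in ectoderm and 0 lower, where 1.93% of all tested genes were called higher and 0.901% lower. The 4 stratified keratins had differences of 0.11 to 0.45, none of them called. Of 7 epithelial markers, 4 were called higher in endoderm than in ectoderm and 0 lower (median 1.90), and their part was not tested.

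Against mesoderm the same 5 genes were called higher in endoderm and 0 lower (3.68% and 4.95% of all tested genes). Krt7 had the largest difference, 2.30 ± 0.18, with mesoderm at 6.50, 6.48 and 6.50. Krt8 (1.04 ± 0.19) and Krt18 (1.10 ± 0.26) exceeded the fold limit by little. In mesoderm, Krt8 read 12.20, 11.22 and 11.89 and Krt18 read 10.98, 9.85 and 11.04, both above their ectoderm values. Without mesoderm replicate 2, the lowest for both, the differences were 0.77 and 0.72 and were not called. Without endoderm replicate 1, the Krt8 difference was 0.97. Krt19 was 1.31 ± 0.24 higher, but 0.73 and not called with the intensity class as a block. In the same comparison, 5 of 7 epithelial markers were called higher in endoderm (median 3.39), and 5 of 5 erythroid, 5 of 5 endothelial and 9 of 14 mesenchyme markers were called lower (medians -3.93, -3.37 and -1.21). The part of these markers was not tested.

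Ectoderm was lower than mesoderm for the pair Krt8 (-1.23 ± 0.19) and Krt18 (-1.43 ± 0.26), and 0 genes were called higher, with 3.52% of all tested genes called lower and 2.02% higher. Krt14 was detected on every mesoderm array, and read 6.09 to 6.29 in ectoderm against 6.69 to 7.22 in mesoderm, without overlap (-0.78 ± 0.23, not called). Erythroid markers had a summed level of 8.64 to 9.93 in ectoderm against 11.88 to 14.78 in mesoderm, endothelial markers 9.53 to 9.86 against 12.01 to 12.58, and mesenchyme markers 11.56 to 11.71 against 13.47 to 13.76, and their part in the keratin levels was not tested.

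Surface ectoderm markers ran with Trp63 at E8.25, and they were higher in the samples labelled endoderm than in those labelled ectoderm. Their summed level was 11.18 to 11.39 in endoderm, against 10.04 to 10.14 in ectoderm and 8.66 to 8.80 in mesoderm. Tfap2c, Tfap2a and Dlx3, which are transcription factor genes of the early surface ectoderm, were 1.22 ± 0.15, 1.19 ± 0.13 and 1.70 ± 0.15 higher in endoderm than in ectoderm. They were 3 of the 4 markers tested, and the other, Grhl3, was not called. Dlx5 was detected on no array of either layer. The part of surface ectoderm cells in the Trp63 and keratin levels of endoderm was not tested. Of the 27 tested basal genes, 7 were called higher in endoderm than in ectoderm and 0 lower, led by the integrin adhesion gene Fermt1 at 2.17 ± 0.21 and the integrin gene Itga3 at 1.87 ± 0.17, but Col17a1 was detected on no endoderm array.

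With the 9 groups ordered by level for each gene, 7 of 80 neighbouring pairs differed by the call rule. For Trp63, Trim29, Krt5, Krt14, Krt15 and Krt17 the called pair was the esophagus and the group after it, which was E8.25 endoderm for 4 of them, mesoderm for Krt14 (1.31 ± 0.23) and stomach for Krt15. The seventh was Krt7 between endoderm and ectoderm. The filter favoured a difference in the Krt5 pair, since Krt5 passed it through the esophagus alone. Along the order of Krt8, from stomach (12.92 ± 0.14, SD, n = 3) and endoderm (12.81 ± 0.13, n = 3) down to lung (11.42 ± 0.09, n = 3) and ectoderm (10.54 ± 0.30, n = 3), and along those of Krt18 and Krt19, no neighbouring pair was called.

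Krt8 and Krt18 varied together over the 9 group means (Pearson r = 0.845) and over the 28 arrays (0.802), given as a description, since arrays of a group share their tissue. Krt15 and Krt17 had 0.988 over the 9 means, which was 0.645 without the esophagus. Krt5 and Krt14 had 0.928, and 0.328 without the esophagus. Trp63 had 0.963 with Krt17, 0.950 with Trim29 and 0.938 with Krt15, and 0.898, 0.637 and 0.485 without the esophagus. Outside the esophagus, Krt5 had group means of 5.98 to 6.28 and Krt17 of 5.85 to 6.63. These lie near or below the detection threshold, so r without the esophagus rests in part on background values. Trp63 and Krt8 had 0.188. The correlations among the stratified genes thus leaned on a single group to different degrees.

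The array held 47 keratin genes, of which 39 are not among those above, and 6 of these 39 were detected well enough to be tested. Krt20, a keratin of the mature intestinal lining, read 9.36 ± 0.31 in liver (SD, n = 3) and 8.78 ± 0.17 in intestine (n = 3), against 6.08 ± 0.12 in E8.25 endoderm (n = 3), where it was not detected. It was 2.05 ± 0.15 higher in liver and 1.36 ± 0.15 higher in intestine than in the mean of the other 5 organs, and was thus high in the organ where Krt7 and Krt19 were lowest. Krt10, a suprabasal keratin, was detected on all 28 arrays and was 1.68 ± 0.17 higher in esophagus (10.25 ± 0.13, n = 3) than in endoderm (8.57 ± 0.07, n = 3). Krt23 was at least 2.36-fold higher in endoderm than in ectoderm. Krt33a, Krt80 and Krt90 had no call in these comparisons, with group means of 5.98 to 7.37.

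**Figure D5:**
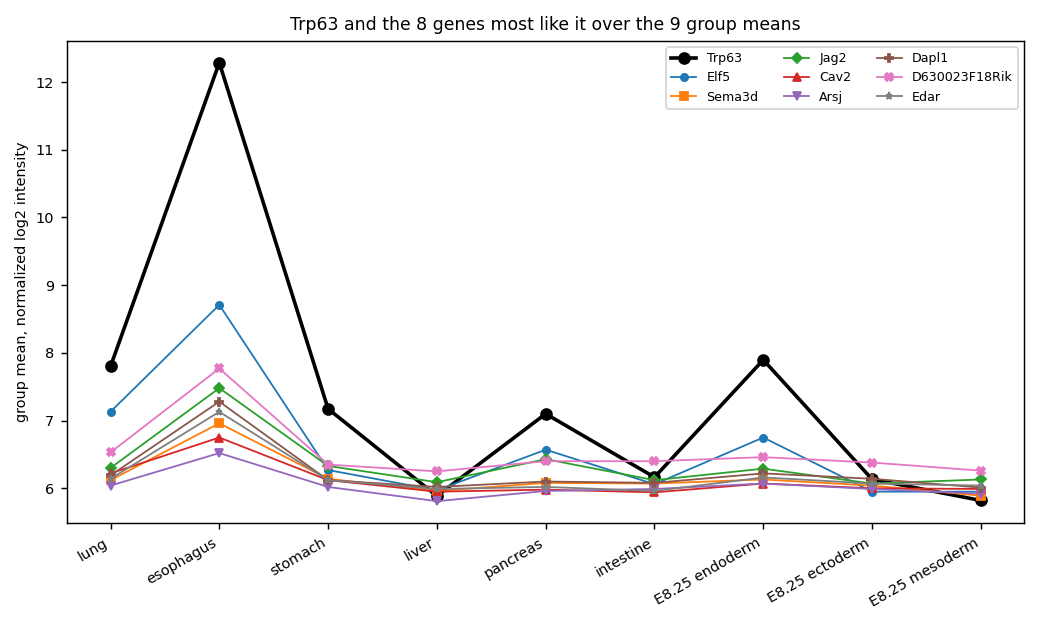
Group means of normalized log2 intensity (vertical axis) for Trp63 and the 8 genes most like it, over the 9 groups (horizontal axis). All 9 lines are highest in esophagus, and Elf5, like Trp63, lies higher in lung and endoderm than in liver, intestine, ectoderm and mesoderm.

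Outside the 10 genes, the 8 tested genes most like Trp63 by Pearson r over the 9 group means were Elf5 (0.984), Sema3d (0.973), Jag2 (0.971), Cav2 (0.967), Arsj (0.964), Dapl1 (0.964), D630023F18Rik (0.962) and Edar (0.960). Elf5 encodes an ETS transcription factor of epithelia, Jag2 a Notch ligand and Edar the ectodysplasin receptor. The genes were chosen by r to a profile that the esophagus dominates, and all 8 were highest there, Elf5 with a mean of 8.71 and 7.13 in lung. Without the esophagus, r over the other 8 groups was 0.926 for Elf5 and 0.763 to 0.864 for the other 7. In those groups, Sema3d, Cav2, Arsj, Dapl1 and Edar had means of 5.81 to 6.22, below the lowest detection threshold of 6.26. Their r without the esophagus thus rests on background values. By r over the 28 arrays, 4 of these 8 were again among the first 8, and by Spearman rank over the 9 means 1 was.

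The genes most like Krt8 followed it less closely, with r from 0.732 to 0.809: Angpt2, Arhgap27, Nepn, Lrpap1, Fut4, Fhl2, Dstn and Pdzk1ip1. Angpt2, which encodes the vascular ligand angiopoietin 2, had its highest group means in endoderm (8.40) and stomach (8.29), the groups at the top for Krt8. Nepn had its highest mean in stomach (9.34). Of these 8, 5 were also among the first 8 over the 28 arrays, and 0 by Spearman rank over the 9 means.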

How the data were processed

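Total RNA was amplified and labelled with biotin, and 28 samples were hybridised to 1 array each, per the labels' protocols. The values are the deposited probe intensities of 25697 probes, on a linear scale; the submitters' processing notes name BeadStudio, and the sources used here do not give any normalization by the authors. Values below 0 occur on 7 arrays. A further deposited table of 112 columns carries array identifiers that no label gives and was not used here, so the planned control probes and detection p-values were replaced by sensory receptor probes.

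Intensities were corrected with normexp (offset 50), quantile-normalized over the 28 arrays and put on the log2 scale. Of several probes of a symbol, the one with the highest mean was kept. Genes that some group had above threshold on each of its arrays were tested. One limma 3.58.1 model (R 4.3.3) of 9 group means gave 17 comparisons, with Benjamini-Hochberg adjustment within each over 9651 genes. The fit was tested on simulated data. Where a group had no array above threshold, its arrays enter a bound at the higher of their level and the threshold. Undetected arrays of a group with some detection keep their level, so such a bound can overstate the least difference. The number of arrays limits the precision.

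Named were all 10 genes, up to 6 called genes per list and comparison, the 8 genes most like Trp63 and Krt8, and other detected keratins. Genes named besides these for an array or a list were chosen after their values were seen. Genes, lists and tests were chosen with earlier results of these data known. Arrays with the same replicate number deviated together for endoderm with ectoderm (r = 0.325 to 0.370) and ectoderm with mesoderm (0.264 to 0.402). These layers were taken as paired only in the alternative fit with a replicate block, which changed no call there. The differences, standard errors and p-values given for them come from the fit without this block. Alternatives covered background, scaling, filter, probe choice, arrays in the fit, replicate block, intensity class, array weights, call rule and each array left out.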

Additional observations from a re-analysis of the deposited data

Results flagged for a closer look

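Of the 10 genes on the 4 pancreas arrays, 1 had an array far from the other 3: Trim29 on pancreas replicate 3, where the gap to the nearest array was 0.837 of the whole range (7.25 there, against 6.30, 6.41 and 6.24 on the others). Chance alone marks about 1 in 20 such groups. That array has the highest detection threshold, 7.48, above its Trim29 level.

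For 9 pairs of organs and genes, one organ was called higher than E8.25 endoderm and the other lower. The pairs were chosen for these opposite calls, so a difference between the organs was fixed by the choice and is given as a description, with no test. Because both changes share the endoderm arrays, each difference is that between the organs themselves. For Trp63, the fitted log2 difference was 6.40 for esophagus over liver and 6.12 for esophagus over intestine. Trp63 was detected on no array of liver or intestine, so the level in esophagus was at least 60.7-fold that of liver and at least 54.3-fold that of intestine. For Krt7, the differences of esophagus, lung and stomach over liver were 3.77, 3.59 and 3.75. For Krt19, the fitted difference was 3.30 for esophagus over liver and 3.15 for intestine over liver, where no liver array detected it, with bounds of at least 7.04-fold and 6.37-fold. It was 2.52 for esophagus over pancreas and 2.38 for intestine over pancreas.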

How the results depend on the processing

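Of 75 calls of the 10 genes over the 17 comparisons, 63 kept direction and side of the threshold under each alternative that gave a value and 68 in each fit that left out 1 array, and 0 values reversed. Lost calls not given beside a result were, with scaling to the 75th percentile, Krt15 in stomach against endoderm (0.97), Krt19 in intestine against endoderm (0.99), Krt8 in endoderm against mesoderm (0.99) and Krt8 in esophagus against stomach (-0.94), with the intensity class as a block, Krt8 in esophagus against stomach (-1.0 when rounded, just short of the limit) and Krt7 in lung (0.99), and, with array weights, Krt8 (0.84) and Krt18 (0.85) in endoderm against mesoderm, Krt8 in esophagus against stomach (-0.87) and Krt7 in lung (0.87); the cause was not tested. The number of genes called in lung against the other organs was 1, and 0 with the replicate block, with the intensity class as a block, within the brighter arrays without liver and with array weights. With the adjusted p alone it was 6, and that rule gave 7 genes in stomach, 8 in liver, 8 in pancreas and 7 in intestine. Against endoderm the adjusted p alone gave 4 genes in stomach, 5 in pancreas and 6 in intestine, and in ectoderm against mesoderm 4. Pancreas against endoderm gave 4 without background correction and 4 with receptor probes as negative controls, which also gave 4 in ectoderm against mesoderm. Stomach against endoderm gave 1 with scaling to the 75th percentile, and endoderm against mesoderm gave 3 with array weights. Leaving out 1 array gave 0 to 1 genes in lung, 1 to 3 in stomach against endoderm, 1 to 2 in intestine against endoderm and 3 to 5 in endoderm against mesoderm. Pancreas 3 and intestine 3 left out together ended no call. The replicate block, which beyond the paired layers follows only a shared number, ended 1 call, Krt7 in lung at 0.98. Detection p-values were not run, since their table could not be assigned to samples, and the brighter arrays gave no value for liver or mesoderm. Krt5 and Krt14 lie near the detection threshold outside the esophagus, which limits their differences there.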
